A study of Mus musculus with 11 samples.

Results

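Apical progenitors (APs) high in G2/M transcripts were 624 of the 16335 barcodes kept from scRNA-seq of the E14.5 dorsal cortex of 1 WT and 1 Syncrip cKO embryo, 266 of 7554 in WT and 358 of 8781 in cKO; the files hold 17948 barcodes in all. A barcode was taken as such a cell when it had at least 1000 genes and at most 10% mitochondrial unique molecular identifiers (UMIs, each of which stands for 1 captured transcript), at least 5 UMIs of Sox2, Pax6, Slc1a3, Mfge8 and Sox9 together, at most 1 UMI of Eomes, at most 1 of Dlx1, Dlx2, Dlx5 and Dlx6os1 together, at most 3 of Neurod2 and Neurod6 together, and at least 10 UMIs of Top2a, Mki67, Cenpf and Ccnb1 together, called here the mitotic sum. The cells were thus selected on UMIs measured in these same libraries, and what the rule fixes is given as a description, with no test. Barcodes that met the same rule with a mitotic sum of at most 9 numbered 334 in WT and 530 in cKO and are called G2/M-low APs.

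The study deleted Syncrip, which encodes an RNA-binding protein of the hnRNP family, with Emx1-Cre, which is active in progenitors of the dorsal neocortex and not in those of the ganglionic eminence (GE). In the cKO, loxP sites flank exons 2 to 4 on both alleles (Syncrip fl/fl; Emx1-Cre), in mice of C57BL/6 background. The WT embryo came from the same pregnant mouse, and the sources used here do not give its floxed alleles or Cre status. The 2 embryos differed in sex: Xist had 0 UMIs in the WT and 7044 in the cKO cells described here, and Uty had 429 and 0, so genotype, embryo, sex and library cannot be told apart in the single-cell data. The same study sequenced RNA from 3 WT and 3 cKO cultures of E14.5 neural progenitor cells (NPCs), taken from the lateral ventricle wall and expanded with EGF and bFGF; the labels do not say whether a culture came from its own embryo, so p-values measure the spread between these cultures.

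APs, or radial glia, are the stem cells that line the ventricle of the embryonic cortex. Their nucleus moves away from the ventricle to replicate its DNA and returns to divide at the ventricular surface, so cells in G2 and mitosis stand next to the lumen. Transcripts of the mitotic machinery are made mainly in G2, when the B-MYB and MuvB complex and FOXM1 switch on a common set of promoters, and they are cleared after division. CDK1 with cyclin B starts mitosis, Aurora and Polo-like kinases build the spindle, the kinetochore ties chromosomes to it, CDC20 and the anaphase-promoting complex end the wait for attachment, and motors of the midbody complete the cut between daughters.

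The rule itself asks for the label's markers, so their presence here describes how the cells were selected and does not check the label. In WT 96.2% and in cKO 95.5% of them had a UMI of Sox2, at medians of 17064 and 16817 UMIs per cell. Among neurons 3.62% and 5.29% had one, at medians of 13317 and 12643 UMIs. Neurons were taken as barcodes with at least 10 UMIs of Neurod2 and Neurod6 and a mitotic sum of at most 1. They also held at most 1 UMI of the rule's apical genes together. Pax6 had a UMI in 95.9% and 94.1% of the cells against 7.14% and 7.41% of the neurons. Top2a had one in 91.0% and 94.1%, against 4.03% and 6.26% of the neurons. The limits that define the neurons keep Sox2, Pax6 and Top2a low in them, so the choice of both classes fixes these contrasts. Of genes that the rule did not name, 18 radial glia genes summed to 12390 CPM in the WT cells against 1495 CPM in WT neurons. The neurons were chosen poor in apical transcripts, which bears on that contrast too. After each cell was thinned to 5000 UMIs, which left out 3 cells of each library, Sox2 was seen in 83.3% of WT and 85.4% of cKO cells and Top2a in 79.1% and 86.8%. The mitotic sum ran from 10 to 181 UMIs in WT, with a median of 28, and from 10 to 125 in cKO, with a median of 28.5. G2/M-low APs were shallower, at medians of 12086 and 11674 UMIs, and the rule counts raw UMIs, so depth and a high mitotic sum cannot be told apart at its edge.

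Some barcodes went against the label. Among them, 10 WT barcodes (3.76%) and 15 cKO barcodes (4.19%) reached limits on nonneural genes that were set after seeing the data. The limits were at least 10 UMIs of endothelial, pericyte, fibroblast and microglia genes together, or 20 of hemoglobin and other red blood cell genes. In WT these 10 held 11 to 1421 such nonneural UMIs, while no other WT cell held more than 5; in cKO 14 cells held 77 to 916 and no other cell more than 4, and 3 cKO cells were marked by red blood cell genes, with up to 8349 UMIs. Sox2 and Pax6 together had at most 1 UMI in 9 of the 10 and 14 of the 15, which met the apical limit mostly through Mfge8, at medians of 10.5 and 8 UMIs. Summed list ratios between the embryos are given below with and without them. Scrublet called 0 WT and 2 cKO cells doublets, which were kept, and 22 barcodes occurred in both libraries, 3 of them borne by these cells and none by a pair of them.

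The cells were 3.52% (95% interval 3.12 to 3.96) of the barcodes kept from the WT and 4.08% (3.67 to 4.51) of those from the cKO embryo. As a share of all APs they were 44.3% (40.3 to 48.4) in WT and 40.3% (37.1 to 43.6) in cKO, or 20.2% and 18.8% when the rule was applied after thinning each cell to 5000 UMIs. These and all intervals on single-cell values below are exact and cover counting error only, and with 1 embryo per genotype no test between genotypes was made. Just inside the limit, cells with a mitotic sum of 10 to 12 (30 WT, 53 cKO) held 9628 and 7383 CPM of the G2/M lists described below, and just outside it, cells with a sum of 7 to 9 (38 WT, 48 cKO) held 7025 and 7108. Levels are given as CPM, the UMIs of a gene or list scaled to 1000000 UMIs of a class of cells in a library. The 3′ UMI counts do not scale with transcript length.

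**Figure D1:**
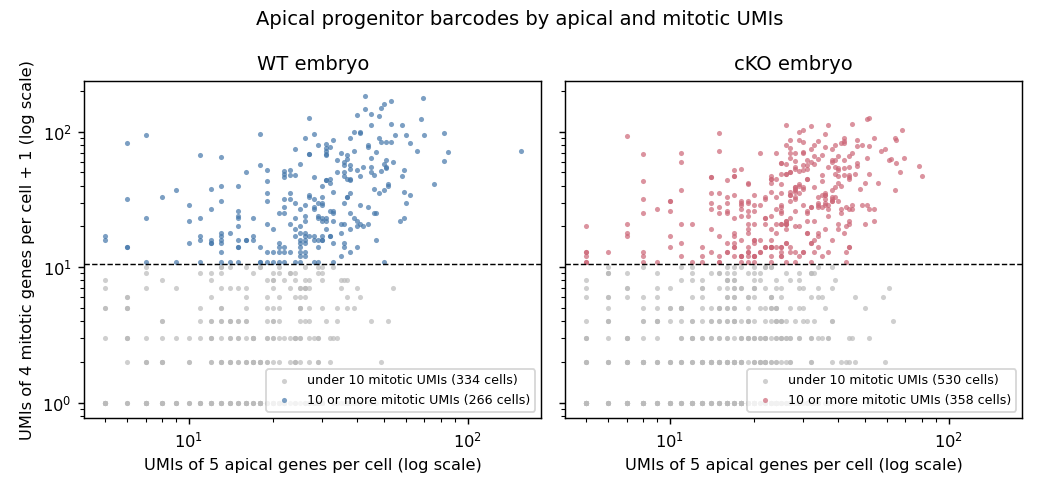
Each point is 1 AP barcode, with the UMIs of the 5 apical genes on the x axis and the mitotic sum plus 1 on the y axis, both log scales; coloured points lie above the dashed limit of 10 UMIs (266 WT and 358 cKO cells) and grey points below it (334 and 530). The cells above the limit form no separate cloud from those below it in either library.

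The promoters of the 4 mitotic genes are shown because the cells were chosen by these transcripts, so that finding them together in a cell is fixed by the rule. RefSeq promoters (GRCm38.p6, the assembly of mm10) covering 250 bases before and 50 after a transcript start were found for 83 of the 96 genes of the G2/M lists and the rule. The letters TTTGAA, the core of the cell cycle homology region, stood on either strand of 59.8% of their 92 promoters, against 17.9% of all 32851 promoters, 12.5% of the 24 promoters of S-phase genes and 10.5% of the 19 promoters of radial glia genes. The letters CCAAT, the NF-Y box, stood on either strand of 68.5%, against 37.4% of all, 70.8% of S-phase and 47.4% of radial glia promoters. Both motifs were in 47.8% of the promoters of the G2/M genes and in 6.95% of all. A match describes the letters and not a bound site. Below are the 150 bases before the transcript start of the 4 mitotic genes of the rule and of Cdc20 and Aspm, each read on the gene's own strand, 5′ to 3′, with both motifs in capitals in either orientation; no match overlaps another.
Top2a (chr11:99024190-99024339, minus strand): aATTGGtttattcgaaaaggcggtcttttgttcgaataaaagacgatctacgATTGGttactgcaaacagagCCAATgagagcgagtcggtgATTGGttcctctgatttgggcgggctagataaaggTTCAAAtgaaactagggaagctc
Mki67 (chr7:135716380-135716529, minus strand): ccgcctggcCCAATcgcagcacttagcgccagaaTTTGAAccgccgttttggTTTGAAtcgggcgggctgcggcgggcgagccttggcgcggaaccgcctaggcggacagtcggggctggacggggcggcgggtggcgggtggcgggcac
Cenpf (chr1:189688087-189688236, minus strand): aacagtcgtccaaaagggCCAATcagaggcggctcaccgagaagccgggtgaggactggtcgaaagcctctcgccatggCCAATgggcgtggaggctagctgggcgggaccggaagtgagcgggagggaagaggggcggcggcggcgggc
Ccnb1 (chr13:100786487-100786636, minus strand): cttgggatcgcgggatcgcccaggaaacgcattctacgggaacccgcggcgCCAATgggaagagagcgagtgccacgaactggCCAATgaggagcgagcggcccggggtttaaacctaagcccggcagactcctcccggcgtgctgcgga
Cdc20 (chr4:118437344-118437493, minus strand): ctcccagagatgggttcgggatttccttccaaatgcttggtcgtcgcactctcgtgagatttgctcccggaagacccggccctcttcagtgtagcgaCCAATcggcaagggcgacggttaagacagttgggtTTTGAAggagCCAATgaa
Aspm (chr1:139454623-139454772, plus strand): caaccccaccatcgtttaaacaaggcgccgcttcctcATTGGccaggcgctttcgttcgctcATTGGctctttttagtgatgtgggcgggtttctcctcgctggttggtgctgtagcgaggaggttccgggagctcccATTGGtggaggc
Top2a, Mki67 and Cdc20 held both motifs in this stretch, and Mki67 held TTTGAA at 2 places. Cenpf and Aspm showed CCAAT alone here, with TTTGAA just after the start and outside the stretch, and no TTTGAA lay in the whole Ccnb1 window, which says only that these letters are not there.

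Against G2/M-low APs of the same library, 277 of 9893 genes were at least 2-fold higher in both libraries (2.8%) and 117 at least 2-fold lower (1.18%); the genes had at least 200 UMIs summed over both classes and libraries, and the choice of the cells fixed this contrast. Of the 92 genes of 7 G2/M lists that the rule did not name, 82 were 2-fold higher in both, with a median log2 ratio of 3.08 in WT and 2.77 in cKO. Together they held 17356 CPM in WT and 15683 CPM in cKO cells, against 3236 and 3536 CPM in G2/M-low APs. With the rule's own genes counted in their lists, all 13 mitotic kinases and chromosomal passenger genes were 2-fold higher in both libraries, as were 16 of 18 kinetochore genes, 16 of 17 spindle motors and spindle proteins, 13 of 14 condensin and chromosome genes, 10 of 11 midbody genes, and 8 of 11 genes of anaphase control. The genes of those lists that were not include Rhoa, a GTPase of the cleavage furrow (log2 0.13 in WT and 0.21 in cKO), and Anapc13, a subunit of the anaphase-promoting complex (0.00 and -0.18).

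Outside the rule's own genes, the highest ratios were those of Pif1, a DNA helicase (log2 6.02 in WT and 7.12 in cKO), Depdc1b (4.57 and 5.12), Depdc1a (4.52 and 4.45), Aurkb, the kinase of the chromosomal passenger complex (4.25 and 4.32), Plk1, a Polo-like kinase (5.60 and 4.22), and Aurka, the centrosomal Aurora kinase (4.43 and 4.20). Iqgap3, Kif14, Nek2, Nusap1, Kif11, Hmmr, Ccnf and the histone genes Hist1h2ab and Hist1h2af completed the 15 highest, from 3.78 to 5.12. Hist1h2ab stood at 328 CPM in the WT cells and at 609 CPM in WT cycling GE progenitors. The lowest ratios belonged to Reln (log2 -6.26 in WT and -5.31 in cKO), Nhlh2 and Ebf3, genes of Cajal-Retzius cells, and to Lum, Bmp6, Serpinf1, Col1a1, Ranbp3l and Cxcl12, several of which mark meninges, besides Cacna2d2. The G2/M-low class held 216 and 231 CPM of Reln, a protein secreted by Cajal-Retzius cells, and 366 and 525 CPM of fibroblast markers. Without vascular and blood barcodes in either class, 66 genes in place of 117 were 2-fold lower.

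Genes of DNA replication did not separate the classes. Of 28 S-phase genes 0 were 2-fold higher and 1 was 2-fold lower, Ung, which removes uracil from DNA (13.9 CPM against 48.8 in WT). Rrm2, a subunit of ribonucleotide reductase, was at 186 CPM in the WT cells and 81.5 in WT G2/M-low APs, while Mcm3, a subunit of the replicative helicase, was at 83.2 and 127. Radial glia genes were alike in level, 12390 CPM in the WT and 12336 in the cKO cells against 11820 and 13936 in G2/M-low APs, with Fabp7, a fatty acid binding protein, the most abundant at 3811 and 3674 CPM. Genes of neurogenic commitment were lower in G2/M-high than in G2/M-low APs. Of 7 with enough UMIs, 3 were 2-fold lower in both libraries, among them Neurog2, the proneural factor that drives neurogenesis (66.4 CPM against 224 in WT, 61.7 against 169 in cKO) and Gadd45g (41.2 against 191, 38.1 against 114). Cdkn1c, a CDK inhibitor of cells that leave the cycle, was at 24.5 CPM in WT cells and 148 in WT G2/M-low APs, and 7.95 and 112 in cKO. Much of that gap lay in the vascular and blood barcodes. Without them Cdkn1c was at 5.47 and 3.83 CPM in G2/M-high APs, on 25 and 23 UMIs. Its log2 ratio to G2/M-low APs was then -0.85 in each library. Cdkn2c, which encodes an inhibitor of CDK4 and CDK6, was higher in G2/M-high APs, at 62.1 against 12.9 in WT and 55.8 against 13.3 in cKO.

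Other cycling cells of the same libraries, chosen on the same minimum of the mitotic sum, gave a scale for these levels. Cycling intermediate progenitors, with at least 3 UMIs of Eomes, numbered 127 and 160. Cycling Dlx-positive GE progenitors, with at least 3 UMIs of the 4 Dlx genes, numbered 124 and 149. The 92 G2/M genes summed to 16512 CPM in WT intermediate and 16893 in WT GE progenitors, close to the 17356 CPM of the WT APs. All these classes had to reach the same mitotic sum, so the choice of the cells bears on this closeness. Radial glia genes were at 4202 and 4035 CPM in these classes and at 1495 CPM in WT neurons, while neurogenic genes were at 2583 and 1170 CPM against 354 CPM in the APs. The Dlx-positive cells held 2590 CPM of Ccnd2, a D-type cyclin, where the APs held 815.

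**Figure D2:**
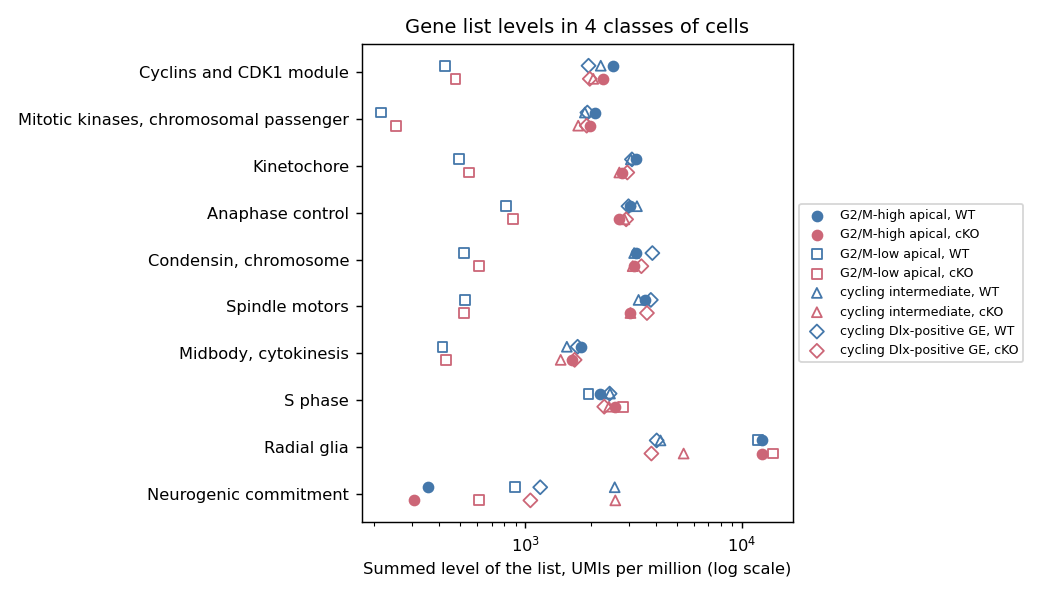
The summed level of each gene list (x axis, CPM, log scale) is shown for G2/M-high APs (filled), G2/M-low APs, cycling intermediate progenitors and cycling Dlx-positive GE progenitors (open), WT in blue and cKO in red. The 3 classes chosen on the same minimum of the mitotic sum lie close together on the G2/M lists. Radial glia genes set both AP classes apart from the other 2.

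Between the embryos, the G2/M lists were lower in the cKO cells. The 92 genes summed to 17356 CPM in WT and 15683 CPM in cKO, a log2 ratio of -0.15 (-0.16 to -0.13); 30 of them lay above 0 and 62 below, with 0 at least 25% higher and 14 at least 20% lower, which is the same step on a log scale. Over all 7854 genes with at least 200 UMIs in these cells, 398 were at least 25% higher (5.07%) and 448 at least 20% lower (5.7%), and the median was -0.03. Scaling by the median ratio of genes turned this balance, to 470 higher and 368 lower. G2/M-low APs held 0.13 more on the same lists (0.10 to 0.16; 0.09, 0.06 to 0.12, without the vascular and blood barcodes), cycling intermediate progenitors -0.13 (-0.15 to -0.11), and cycling GE progenitors, where Emx1-Cre does not act, -0.06 (-0.08 to -0.04). Without the vascular and blood barcodes the ratio in G2/M-high APs was -0.13 (-0.14 to -0.11). There 34 genes lay above 0, 1 was at least 25% higher and 14 at least 20% lower. It was -0.10 in cells with a mitotic sum of at least 20, and -0.08 where the rule was applied after thinning to 5000 UMIs.

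By role, spindle motors and spindle proteins had a summed log2 ratio of -0.24 (-0.27 to -0.21; -0.22 without the vascular and blood barcodes), with 6 of 17 genes at least 20% lower. Aspm, which focuses the spindle poles and is mutated in primary microcephaly, was at 124 CPM in WT and 84.9 in cKO (log2 -0.54, -0.71 to -0.38), and Kif2c, which removes microtubules from chromosomes, at 101 and 69.0 (-0.55, -0.73 to -0.36). Arl6ip1, the most abundant gene of that list, was at 856 and 667 CPM (-0.36), Tacc3 at 182 and 143 (-0.35), Numa1, which links the spindle to the cell cortex, at 84.2 and 63.8 (-0.40), and Kif18b at 41.6 and 32.9 (-0.34). Kif11, the motor that separates the poles, was at 226 and 224 CPM (-0.01), so the list did not shift as 1 block.

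Kinetochore genes had a summed ratio of -0.21 (-0.24 to -0.18), but -0.14 (-0.18 to -0.11) when Cenpf, a gene of the rule, was left out of the list; without the vascular and blood barcodes the values were -0.18 and -0.11. The 4 of 18 that were at least 20% lower were Cenpf, at 715 CPM in WT and 509 in cKO (-0.49), Cenpa, the centromeric histone, at 473 and 343 (-0.46), Cenpe, a kinetochore motor, at 276 and 201 (-0.46), and Spdl1, which brings dynein to kinetochores (-0.42). The outer kinetochore genes Spc24 and Spc25 stood on the other side, at 0.14 and 0.11. Among genes of anaphase control (-0.17, -0.20 to -0.14; -0.15 without those barcodes), Cdc20 was at 350 CPM in WT and 245 in cKO (-0.51, -0.61 to -0.42) and Pttg1, the securin, at 38.8 and 28.1 (-0.47), while Bub3 (0.03) and Fbxo5, an inhibitor of the anaphase-promoting complex (0.10), were not lower.

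Of the cyclin and CDK1 genes (-0.16, -0.19 to -0.12; -0.12 without Ccnb1, a gene of the rule; -0.14 without the vascular and blood barcodes), 3 of 12 were at least 20% lower: Ccnb1, at 315 CPM in WT and 237 in cKO (-0.41), Ccnb2, at 229 and 179 (-0.35), and Cdc25b, the phosphatase that starts CDK1, at 39.2 and 27.8 (-0.50). Cdk1 itself was at 383 and 411 CPM (0.10) and Wee1, the kinase that holds it back, at 82.4 and 87.9 (0.09). Mitotic kinases had a ratio of -0.07 (-0.10 to -0.03; -0.05 without those barcodes): Nek2, a kinase of centrosome separation, was at 38.2 and 23.1 CPM (-0.73, -1.04 to -0.41), and Plk1 was at 112 in both. Condensin and chromosome genes had a ratio of -0.03 (-0.06 to 0.00; -0.01 without those barcodes) with none past either limit, or -0.08 (-0.12 to -0.04) without Top2a and Mki67, and -0.05 (-0.09 to -0.01) also without the vascular and blood barcodes. Top2a, which untangles sister chromatids, was at 744 CPM in WT and 814 in cKO (0.13, 0.07 to 0.19), and Mki67 at 399 and 369 (-0.11). Midbody genes had a ratio of -0.13, with or without those barcodes, with 0 of 11 past a limit. Of 12 microcephaly genes Aspm alone was 20% lower, and 6 lay on each side of 0. The factors that drive G2/M promoters gave 0.05 as a list (-0.03 to 0.13; 0.08 without those barcodes), with Foxm1 at 47.1 and 46.7 CPM and Mybl2, which encodes B-MYB, at 18.9 and 25.1 (0.41, 0.03 to 0.79), the only 1 of 10 at least 25% higher; Lin37, a MuvB subunit, was the only 1 at least 20% lower, at 25.1 and 19.1 CPM (-0.40).

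S-phase genes were on the other side. They summed to 2208 CPM in WT and 2597 in cKO cells, a log2 ratio of 0.23 (0.20 to 0.27), and 24 of the 26 with enough UMIs lay above 0, 6 of them at least 25% higher, and none was 20% lower. After thinning before the rule the ratio was 0.15, and without the vascular and blood barcodes it was 0.22 (0.19 to 0.26), with 5 genes at least 25% higher. Mcm2, a helicase subunit, was at 36.4 and 51.8 CPM (0.51, 0.24 to 0.78), Pcna, the sliding clamp, at 252 and 322 (0.36, 0.25 to 0.46), Tyms, which makes thymidylate, at 174 and 221 (0.34), and Ccne1, the cyclin of S-phase entry, at 22.5 and 32.9 (0.54). In G2/M-low APs the ratio of the list was 0.52 (0.49 to 0.56; 0.46, 0.42 to 0.49, without those barcodes), with all 26 genes above 0 over the whole class, in cycling intermediate progenitors -0.02 (-0.06 to 0.03), and in cycling GE progenitors -0.08 (-0.13 to -0.03), with 5 of 26 above 0. Taken cell by cell, S-list UMIs were a median of 8.08% of the S and G2/M list UMIs in WT cells (quartiles 4.50 and 18.3) and 11.6% in cKO cells (6.37 and 22.6), and the 2 ranges overlapped nearly whole, 1.19% to 58.1% and 1.28% to 59.7%. The same medians were 12.04% and 10.8% in cycling GE progenitors and 10.3% and 13.3% in cycling intermediate progenitors. Without the vascular and blood barcodes they were 8.04% and 11.2% in the APs.

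**Figure D3:**
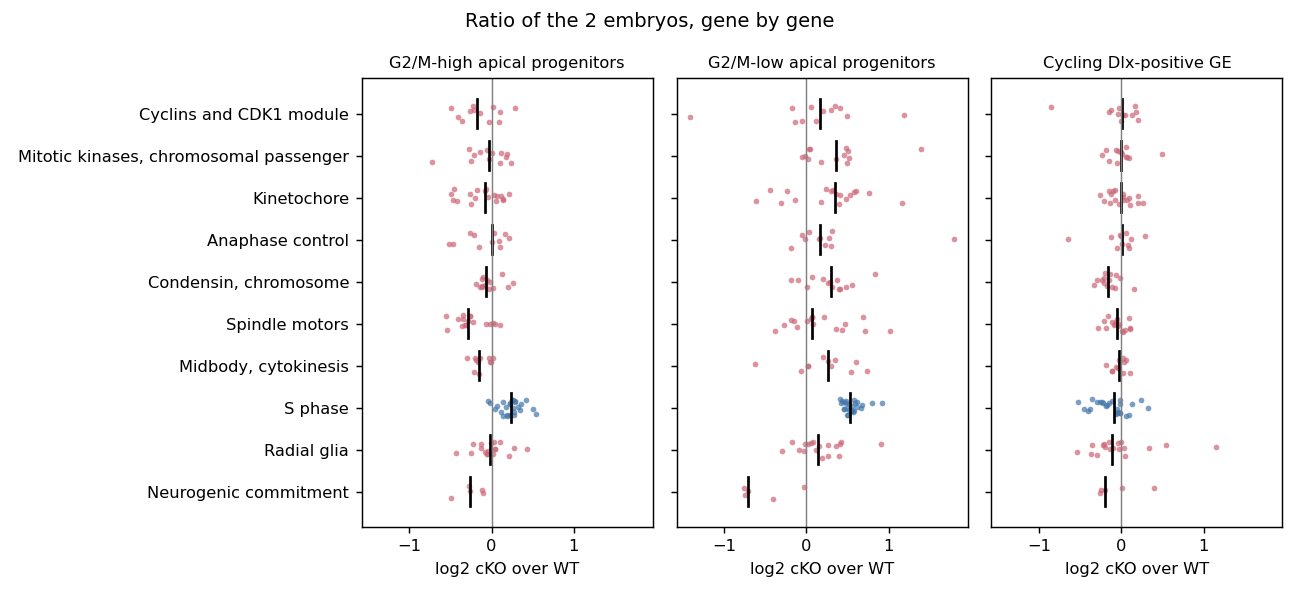
Each point is 1 gene with at least 200 UMIs in G2/M-high APs and its log2 ratio of cKO over WT (x axis) in 3 classes of cells, by gene list (y axis), with S-phase genes in blue and the median of each list as a black bar. The S-phase median is 0.24 in G2/M-high APs, 0.53 in G2/M-low APs and -0.09 in cycling GE progenitors.

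The difference on the G2/M lists was uneven along the mitotic sum. Cells with a sum of 10 to 19 (89 WT, 109 cKO) held 11165 CPM of the G2/M lists in WT and 8540 in cKO (log2 -0.39, -0.42 to -0.35), those with 20 to 39 (77 and 125) held 15371 and 15765 (0.04, 0.01 to 0.06), and those with 40 and more (100 and 124) held 21397 and 19763 (-0.11, -0.13 to -0.10). S-phase genes in the same order were at 2866 and 3528 CPM (0.30), 2952 and 2917 (-0.02), and 1503 and 1827 (0.28). Cdc20 was lower in cKO in each of the 3 ranges, at 290 against 128 CPM, 264 against 196, and 424 against 348, as was Cenpe, at 154 against 92.9, 201 against 156, and 374 against 296. Aspm was lower in the lowest range, at 71.1 against 35.1 CPM, and in the highest, at 178 against 120, and not in the middle one, at 69.4 against 76.7. Hmga2 was higher in cKO in each, at 74.5 against 134, 90.4 against 141, and 133 against 180. The rule's own sum set these ranges, so only the comparison between the embryos within a range is read from them. Without the vascular and blood barcodes the G2/M ratios of the 3 ranges were -0.31, 0.06 and -0.14 and the S-phase ratios 0.41, -0.07 and 0.26. In the middle range lay 28.9% of WT and 34.9% of cKO cells.

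**Figure D4:**
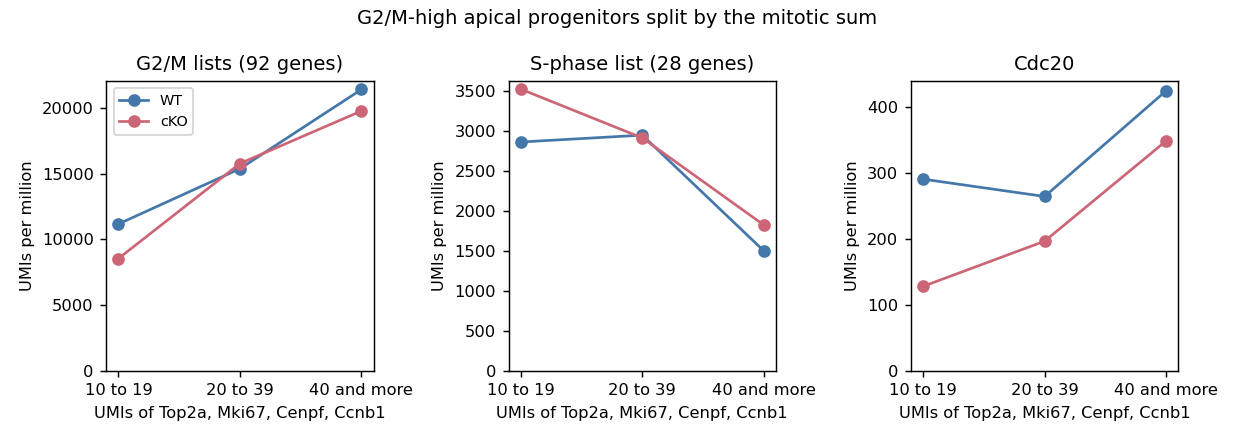
G2/M-high APs were split by their mitotic sum (x axis, UMIs), and the summed level of the 92 G2/M genes, of the 28 S-phase genes and of Cdc20 (y axes, CPM, from 0) is shown for WT in blue and cKO in red. The Cdc20 lines stay apart in all 3 ranges, while the G2/M lines meet at 20 to 39 UMIs.

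Genes of radial glia identity summed to 12390 and 12336 CPM (log2 -0.01, -0.02 to 0.01) over all the cells, and to 12455 and 13254 CPM (0.09, 0.07 to 0.11) without the vascular and blood barcodes. Over all the cells, 1 of 18 genes was at least 25% higher and 1 at least 20% lower. The higher one was Mt3, a metallothionein, at 424 and 570 CPM (0.43; 0.91 in G2/M-low APs and -0.37 in cycling GE progenitors), and the lower one Hes5, a Notch effector, at 154 and 114 (-0.43, and -0.27 without the vascular and blood barcodes; 0.01 in G2/M-low APs and -0.10 there without those barcodes). Hes1, the other Notch effector, was at 192 and 223 CPM (0.21, 0.09 to 0.33). Pallial factors gave -0.01 (-0.06 to 0.04; 0.03 without the vascular and blood barcodes), with Lhx2 at 479 and 461 CPM, and Emx1, whose promoter drives the Cre, at 30.4 and 19.1 CPM (-0.67, -1.02 to -0.32). Genes of early progenitor time gave 0.08 as a list (0.02 to 0.14, and 0.14 without those barcodes), with 3 of 6 above 0 and 3 below. In that list 1 gene was at least 25% higher and 1 at least 20% lower. Without the vascular and blood barcodes 4 of the 6 lay above 0, with 1 at least 25% higher and 0 at least 20% lower. Hmga2 was at 108 and 156 CPM (0.53, 0.38 to 0.69). The list of late genes was lower in cKO (-0.19, -0.21 to -0.17, and -0.15 without those barcodes). Of its 8 genes 6 lay below 0, 2 of them at least 20% lower, and 2 lay above 0. Tcf4 was at 2357 and 1812 CPM (-0.38), Nedd4 at 727 and 560 (-0.38), Zbtb20 at 914 and 760 (-0.27), Nfix at 548 and 459 (-0.26) and Nfib at 1746 and 1491 (-0.23). In cycling GE progenitors the late list had a ratio of 0.03 (0.01 to 0.06). Syncrip, on the minus strand at chr9:88447009-88482574 (mm10), was at 316 and 310 CPM (-0.02, -0.12 to 0.07). Its UMIs are read at the 3′ end, outside the floxed exons, and check nothing about the deletion.

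Lists tied to the movement and attachment of these cells differed by small amounts. Genes of nuclear migration had a summed ratio of -0.21 (-0.25 to -0.16; -0.19 without the vascular and blood barcodes), which Tpx2 (351 and 284 CPM) and Tacc3 share with the spindle list; Dync1h1, the dynein heavy chain, was at 123 and 106 CPM and Syne2, a nuclear envelope protein that dynein pulls on, at 216 and 190. Junction and cilium genes gave -0.08 (-0.14 to -0.03) with 0 of 9 past a limit, and -0.10 without those barcodes, with 1 of 9 at least 20% lower. Neurogenic genes gave -0.21 (-0.30 to -0.12; -0.22 without those barcodes), with Insm1 at 47.3 and 33.6 CPM, and -0.55 in G2/M-low APs (-0.60 without those barcodes). Immediate early genes gave -0.21 (-0.26 to -0.16; -0.18 without those barcodes), with 0 of 7 above 0 and Fos at 47.3 and 31.2 CPM. p53 targets summed to 323 CPM in both, a ratio of 0.00 (-0.01 without those barcodes). Of G1 cyclins and CDK inhibitors, Ccnd1 was at 83.6 and 64.8 CPM (-0.37), Ccnd2 at 815 and 926 (0.18), and Cdkn1c, which with 122 and 53 UMIs was under the minimum of 200, at 24.5 and 7.95 (-1.63, -2.12 to -1.15; -0.51, -1.40 to 0.36, without the vascular and blood barcodes).

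With predicted, mitochondrial, hemoglobin and sex genes left out, the largest single-gene ratios between the embryos fell outside the lists above. The 10 highest in cKO were Ctla2a (log2 1.91), Lrp1b (1.48), Piezo2 (1.42), Ifitm3 (1.35), Lypd6 (1.35), Cd34 (1.29), Agbl4 (1.28), Egfl7 (1.28), Slc38a5 (1.24) and AU021092 (1.16). Cd34 and Egfl7 are endothelial genes, and Ctla2a, Cd34 and AU021092 had no UMI on at least 1 side once the vascular and blood barcodes were left out, where Ifitm3 came to -0.13. Lrp1b, a lipoprotein receptor, at 29.4 and 81.9 CPM, and Lypd6, at 13.3 and 33.8, kept 1.59 and 1.38 without those barcodes and were 1.02 each in cycling GE progenitors. The lowest were Dct (-2.99), Eya1 (-1.51), Ephb1 (-1.45), Ecrg4 (-1.38), Rmst (-1.35), Kcnip1 (-1.31), Zic1 (-1.28), Draxin (-1.23) and Gabrb1 (-1.07). Dct, dopachrome tautomerase, was at 55.9 CPM in WT and 7.05 in cKO cells, and at 39.8 and 9.15 in G2/M-low APs. Without the vascular and blood barcodes these genes were again among the lowest except Zic1, in whose place stood Slc9a3r1 (-0.94), while 3 of the 10 highest (Lrp1b, Agbl4 and Lypd6) stayed and were joined by Nr2f2 (1.53), Kcnip4, Nell2, Luzp2, Grm8, Slc2a13 and Ntrk2, a receptor of brain-derived neurotrophic factor (1.07). With the rule applied after thinning, when few UMIs of them remained, Piezo2 (-0.39), Egfl7 (-0.98) and Rmst (0.17) changed sign.

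Markers of other cell types were low in these cells, apart from the barcodes named above. The 9 neuron markers summed to 187 CPM in WT and 212 in cKO cells, led by Tubb3, against 7164 CPM in WT neurons. The rule limits Neurod2, Neurod6 and Dlx UMIs, and the neurons were chosen for Neurod2 and Neurod6. Selection thus bears on the neuron and GE neuron values. The 8 GE neuron markers summed to 9.85 and 15 CPM, led by Gad2, 5 Cajal-Retzius markers to 4.42 and 7.35 CPM with Lhx5 at 0, 8 microglia markers to 11.5 and 14.4 CPM, led by P2ry12, 4 oligodendrocyte progenitor markers to 5.23 and 11.4 CPM, and 7 choroid plexus and hem markers to 5.63 and 5.55 CPM with Ttr and Wnt3a at 0. The 6 endothelial markers summed to 280 and 425 CPM, led by Cldn5, with all 6 at least 25% higher in cKO (log2 0.60, and -0.39, -1.27 to 0.49, without the marked barcodes). The 6 pericyte markers summed to 250 and 257 CPM, led by Rgs5, and the 6 fibroblast markers to 57.7 and 54.8 CPM, led by Col3a1; without the marked barcodes their ratios were 0.02 (-0.85 to 0.91) and 0.19 (-0.94 to 1.38). The 7 red blood cell markers summed to 73.2 and 2570 CPM, led by Hbb-bs (log2 5.13, and -0.05 without the marked barcodes).

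The NPC cultures were used to see how the same genes stood in replicated samples that the choice of cells did not use. They held 16962903 to 22708400 counts each. Cultures are mixtures, and in them more dividing cells and more RNA per cell cannot be told apart. Y-linked genes had 8899, 5903 and 1 counts in WT cultures 1 to 3 and 9232, 0 and 0 in cKO cultures 1 to 3. All tests on them are edgeR's quasi-likelihood test with Benjamini-Hochberg adjustment over 14432 genes, which called 2843 genes higher in cKO (19.7%) and 2858 lower (19.8%). Sox2 and some other genes (Wee1, Bub3, Prc1, Kif18b, Gins2, Cdt1 and Tubb3 among those named here) are listed at 0 in all 6 cultures and were not tested.

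All 4 mitotic genes of the rule rose in cKO cultures. Top2a was at 68.7, 60.3 and 50.5 CPM in WT and 99.7, 124 and 140 in cKO (log2 1.02 ± 0.12 SE, adjusted p = 3.26e-05). Cenpf was at 24.3, 20.9 and 21.0 CPM in WT and 37.7, 50.9 and 55.0 in cKO (1.11 ± 0.13, adjusted p = 1.94e-05). Ccnb1 was at 17.3, 14.9 and 11.02 CPM in WT and 27.6, 37.0 and 37.2 in cKO (1.23 ± 0.16, adjusted p = 3.86e-05). For each of these genes every cKO culture lay above every WT culture, with cKO culture 1 the lowest of its group. Mki67 was at 58.6 ± 6.57 CPM (SD, n = 3) in WT and 99.4 ± 20.5 in cKO, again with no overlap (0.76 ± 0.13, adjusted p = 0.000554).

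The G2/M lists moved with them. Of the 92 genes 85 were tested, of which 69 rose, 3 fell and 13 did not pass, with a median log2 fold change of 0.89 against 0.00 over all genes tested. Neuron markers went the other way in the same cultures. Of 8 tested, 6 fell and 0 rose, with a median log2 fold change of -0.97, and 4 to 6 fell when 1 culture was left out. They summed to 1160, 1148 and 1264 CPM in WT and 696, 727 and 693 in cKO cultures. Whether the share of neurons differed between the cultures was not tested. Of 8 neurogenic commitment genes tested, 4 rose, 2 fell and 2 did not pass, with a median log2 fold change of 0.06. Without WT culture 1, 2 of them rose and 4 fell. With the rule's own genes counted in their lists, all 13 mitotic kinases and passenger genes rose, as did 13 of 14 condensin and chromosome genes, 13 of 16 spindle genes, 12 of 15 kinetochore genes, 9 of 10 midbody genes and 8 of 11 cyclin and CDK1 genes, but only 5 of 10 genes of anaphase control passed. Kif23, a midbody motor, was at 6.17, 6.02 and 7.18 CPM in WT and 15.3, 20.4 and 20.4 in cKO (1.53 ± 0.15, adjusted p = 4.52e-06). The genes of the lists that fell were Ckap5 (-0.27), a microtubule polymerase, Rhoa (-0.35) and Mis12 (-0.49), a kinetochore gene. Ckap5 lost its call without cKO culture 2 or 3 (adjusted p = 0.0672 and 0.0705). Of 26 S-phase genes 16 rose and 1 fell, Gins3 (-0.52), which lost its call without any 1 of the 6 cultures; without WT culture 3, cKO culture 2 or cKO culture 3 the number that rose was 11, 10 and 9, and that of anaphase control was 3 without WT culture 2 or 3 or cKO culture 2 or 3. Pcna, at 66.0 ± 6.33 and 71.2 ± 5.97 CPM, did not pass (0.11 ± 0.10, adjusted p = 0.38).

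**Figure D5:**
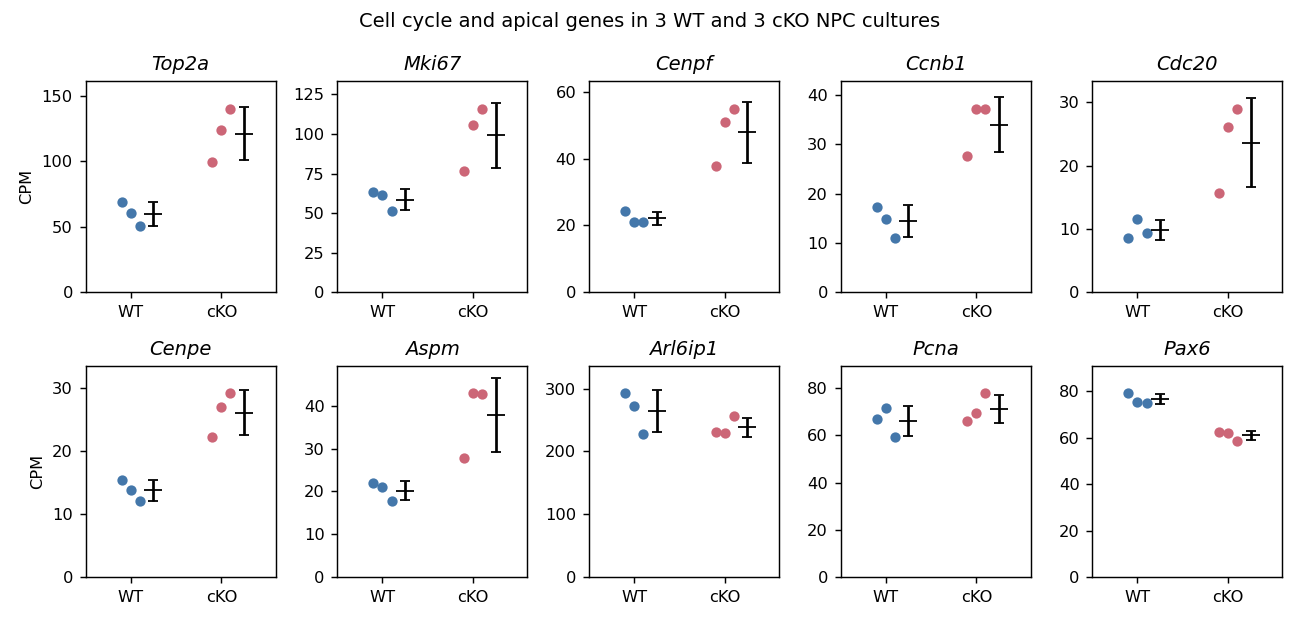
Levels in CPM (y axes, from 0) of 10 genes are shown in each of 3 WT (blue) and 3 cKO (red) NPC cultures, with the mean and SD beside the points. The 4 mitotic genes of the rule, Cdc20, Cenpe and Aspm show no overlap between genotypes and higher cKO cultures, Pax6 shows lower ones, and Arl6ip1 and Pcna overlap.

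Genes that were lower in the G2/M-high APs of the cKO embryo were then looked up in the cultures. Counting the rule's own Cenpf and Ccnb1, 16 G2/M genes were at least 20% lower in the cKO APs, 15 of them with enough counts in the cultures, and 12 of these 15 rose there with every cKO culture above every WT culture: Nek2, Kif2c, Aspm, Cdc20, Cdc25b, Cenpf, Cenpa, Cenpe, Spdl1, Ccnb1, Ccnb2 and Tacc3. With the rule's own genes counted, 66 of all 89 G2/M genes tested rose with no overlap (74.2%), so nothing particular to the genes lower in the cells is read from the 12. Cdc20 was at 8.65, 11.6 and 9.37 CPM in WT and 15.6, 26.1 and 29.0 in cKO cultures (1.26 ± 0.20, adjusted p = 0.000247), against the ratio of -0.51 in the embryo's cells. Arl6ip1, Numa1 and Pttg1, also lower in the cells, did not pass in cultures (-0.15, 0.00 and 0.08; adjusted p = 0.241, 0.993 and 0.652). No test joins the 2 assays, which differ in cells, platform and unit.

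Apical genes of the rule did not follow the mitotic ones in culture. Pax6 fell, from 79.2, 75.5 and 75.1 CPM in WT to 62.4, 61.9 and 58.8 in cKO (-0.33 ± 0.08, adjusted p = 0.00487), as did Sox9 (-0.34) and Slc1a3 (-0.33, adjusted p = 0.101 and 0.0806 without cKO culture 2 or 3), while Mfge8 did not pass (-0.14, adjusted p = 0.33). Of 17 radial glia genes 5 rose: Nes, Fabp7, Ptprz1, Hes5 and Hes1, the last from 4.91 ± 0.438 to 35.1 ± 3.26 CPM (2.84 ± 0.13, adjusted p = 2.54e-09), and 9 fell, among them Mt3 (-1.16), which was higher in the cKO APs. Hes5, at 75.6, 93.2 and 62.2 CPM in WT and 118, 110.2 and 96.1 in cKO cultures, rose (0.49 ± 0.12, adjusted p = 0.00618) but lost its call without WT culture 1 (0.47, adjusted p = 0.131), and it was lower in the cKO APs (-0.43). Hmga2 rose from 0.939 ± 0.158 to 6.36 ± 0.666 CPM (2.74 ± 0.23, adjusted p = 1.06e-06), and 6 of 8 late progenitor genes fell, Nedd4 (-0.31), Zbtb20 (-0.56), Nfib (-0.31), Nfix (-0.50), Dbi (-0.58) and Aldoc (-0.89), of which Dbi and Aldoc were not lower in the cKO APs. Without cKO culture 3 the late genes that fell were 4 in number, Nedd4 and Nfib having lost their calls (adjusted p = 0.053 and 0.0795), and Nfib lost its call also without cKO culture 2 (adjusted p = 0.0518). Of 10 immediate early genes 9 rose, with Fos at 65.3 ± 13.9 and 657 ± 44.9 CPM (3.33 ± 0.13, adjusted p = 7.31e-10), and 9 of 10 p53 targets fell, led by Cdkn1a at 99.2 ± 18.1 and 32.0 ± 3.57 CPM (-1.63 ± 0.13, adjusted p = 4.76e-07). Syncrip was at 79.2 ± 1.09 and 86.8 ± 4.69 CPM (0.13 ± 0.08, adjusted p = 0.18), a count over the whole gene that does not isolate the floxed exons.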

How the data were processed

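The single-cell matrices hold UMI counts as deposited, written by Cell Ranger 7.0.0 for its filtered barcodes and aligned to mm10 per the submitters' processing notes; no normalization or doublet removal is visible in them. For the NPC cultures, the authors deposited raw counts per gene after quality filtering of paired reads and alignment to mm10 with HISAT2. For the counting step, the program, annotation and strand setting were not given in the sources used here. Single-cell libraries held 100172392 (WT) and 111313526 (cKO) UMIs, and cultures held 16962903 to 22708400 counts.

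The cells, the 34 gene lists and the comparisons were chosen with earlier results of these data known, so no count over a list is independent support. UMIs were summed per class and library in Python 3.11.15 (numpy 2.4.6, scipy 1.17.1, scanpy 1.11.5 with Scrublet). Ratios of the embryos carry exact conditional 95% intervals, which cover counting error only, and genes needed 200 summed UMIs. Cultures were compared with edgeR 4.0.16 in R 4.3.3 (filterByExpr, TMM, robust quasi-likelihood fit, Benjamini-Hochberg adjustment at 0.05); SE was derived from the F statistic. With 3 against 3, an exact permutation test of 1 gene cannot go below 0.1. Named genes were those of the rule, the 15 highest and 10 lowest by the smaller of both libraries' ratios to G2/M-low APs, the 10 highest and 10 lowest between embryos (predicted, mitochondrial, hemoglobin and sex genes left out of both), and genes the study names for APs; members of lists of up to 12 genes could be named, as could the most abundant and most different of longer lists; other members of longer lists were chosen after their values were seen. Alternatives were other mitotic and UMI minimums, doublets removed, per-cell means, median scaling, thinning, RLE scaling, no filter, DESeq2 1.42.0, a replicate block and leaving out each culture; one without vascular and blood barcodes was added after seeing the data. LACE-seq was not analysed here, and 1 of the 10 lowest genes between embryos is not reported here.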

Additional observations from a re-analysis of the deposited data

Results flagged for a closer look

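The direction between embryos was not the same in every class of cells for the following lists, and none of these differences was tested, since each genotype had 1 embryo. Against a summed log2 ratio of cKO over WT of -0.15 in G2/M-high APs, the 92 G2/M genes were at 0.13 in G2/M-low APs, or 0.09 without the vascular and blood barcodes. By role the G2/M-low values were 0.16 for cyclins and CDK1, 0.22 for mitotic kinases, 0.15 for the kinetochore, 0.12 for anaphase control, 0.23 for condensins and 0.15 for microcephaly genes, and without those barcodes 0.11, 0.14, 0.08, 0.06, 0.18 and 0.12 in the same order, where each of these lists lay below 0 in G2/M-high APs. The low class held far fewer UMIs of these genes (3236 CPM in WT), and its own limit on the mitotic sum bounds them.

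The S-phase list was at 0.23 in G2/M-high APs and at -0.083 in cycling Dlx-positive GE progenitors. Late progenitor genes were at -0.19 and 0.034, and G1 cyclins and CDK inhibitors at 0.05 in G2/M-high APs (0.075 without the vascular and blood barcodes) against -0.066 in cycling intermediate and -0.25 in cycling GE progenitors. The 5 apical genes of the rule were at -0.13 in G2/M-high APs, 0.051 in G2/M-low APs and 0.20 in cycling intermediate progenitors. Without the vascular and blood barcodes they were at -0.076 in G2/M-high and -0.025 (-0.073 to 0.023) in G2/M-low APs, no longer on opposite sides of 0. Both AP classes were selected on these genes, and the cycling intermediate progenitors on Eomes and the mitotic sum. Neuron markers were at 0.18 in G2/M-high APs (0.20 without those barcodes) and -0.13 in cycling intermediate progenitors.

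Endothelial markers were at 0.60 in G2/M-high and -1.68 in G2/M-low APs, and red blood cell markers at 5.13 and -4.46; without the vascular and blood barcodes they were -0.39 and -0.05 in G2/M-high and -0.11 and 0.23 in G2/M-low APs.

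The 12 G2/M genes that were at least 20% lower in cKO G2/M-high APs and higher in every cKO culture than in every WT culture were also picked out by their opposite directions, and the difference between the assays was not tested.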

How the results depend on the processing

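With a mitotic minimum of 5, the cells were 55.5% of APs in WT and 51.1% in cKO; with 20, 29.5% and 28.04% (177 WT cells); and with the rule applied after thinning each cell to 5000 UMIs, 20.2% and 18.8% (115 and 151 cells). The summed G2/M ratio was -0.13 with a minimum of 5, -0.10 with 20, -0.12 with per-cell means, -0.12 with median scaling, -0.079 after thinning and -0.13 without vascular and blood barcodes, below 0 under each of them. The S-phase ratio was 0.19 with a minimum of 20 and 0.15 after thinning. Genes past the limits between embryos numbered 1086 higher and 1078 lower with a gene minimum of 50 UMIs, 145 and 169 with 500, and 87 and 89 after thinning. Thinning also left 153 genes 2-fold higher and 28 lower than in G2/M-low APs, and leaving out vascular and blood barcodes left 66 lower. Of the single genes named between embryos, Piezo2 (-0.39), Egfl7 (-0.98) and Rmst (0.17) reversed after thinning and Ifitm3 (-0.13) without the vascular and blood barcodes; the cause was not tested. Precision in the single-cell data is limited by 1 embryo per genotype, which no depth replaces.

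In cultures, leaving out 1 culture at a time gave 2068 to 3070 genes higher and 2040 to 3275 lower, and the G2/M genes that rose numbered 57 to 69. DESeq2 called 2629 higher and 2754 lower, RLE scaling 2787 and 2895, and no filter 2792 and 3114. Plk1 lost its call without cKO culture 3 (0.57 against 0.70 with all 6, adjusted p = 0.0611) and Hes5 without WT culture 1 (0.47 against 0.49, adjusted p = 0.131). WT and cKO cultures share replicate numbers, but same-numbered cultures deviated together with correlations of 0.26, -0.05 and 0.12, and not every culture correlated best with its own number, so the numbers were not taken to pair them. With the replicate block, 3189 genes were higher and 3216 lower, 69 of the G2/M genes rose, and Top2a (adjusted p = 0.0584), Mki67 (0.0634) and Ube2c (0.0653) lost their calls.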
